A study of Homo sapiens with 58 samples.

Results

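Late gained regulatory elements (REs) are regions of open chromatin that were more accessible after 48 h of near-complete SOX9 loss in human cranial neural crest cells (CNCCs) but showed little or no mean gain after 3 h. They were selected on 2 contrasts of ATAC-seq counts, each on the log2 scale of CPM (counts per M counts of the library) with 0.5 added. The first, the mean difference between 500 nM and 0 nM dTAGV-1 at 48 h over 7 SOX9-tagged replicates, had to be at least 0.7 with all 7 replicates higher and a mean of at least 2 CPM at 500 nM. The second, the mean difference between 3 h of 500 nM and vehicle over 2 differentiations, had to be below 0.15. These criteria kept 708 of 151,457 REs (0.468%), which was 50.7% of the 1,396 REs that met the 48 h criteria.

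The study titrated SOX9, a transcription factor of neural crest and cartilage, to ask how chromatin follows its dosage. The CNCCs were derived in culture from the H9 embryonic stem cell line, which is an established line, and SOX9-tagged cells carry on both SOX9 alleles a tag of a mutant FKBP12, mNeonGreen and V5 through which the small molecule dTAGV-1 causes degradation of the protein. The tagged cells come from clones S9CC13 and S9CC47. Wild-type (WT) CNCCs have untagged SOX9. In the dose series, tagged cells received 0, 0.5, 1.6, 5, 16 or 500 nM dTAGV-1 for 48 h, which left 100, 77.9, 51.7, 25.8, 8.14 or 0.95% of SOX9 according to the labels, with 7 replicates per concentration (differentiations R6, R10, R13 and R14 of S9CC13, and R5, R6 and R8 of S9CC47). WT cells received 0 or 500 nM for 48 h (differentiations R8 and RSh). In the time course, tagged and WT cells of differentiations R4 and R5 received vehicle, or 500 nM for 3 h or 24 h. All groups were treated in the same medium with matched DMSO. The tagged R5 time-course columns bear the clone name S9CC47 although the matching titles name S9CC13, so the clone was not used there.

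ATAC-seq uses the Tn5 transposase to cut accessible DNA, so that the reads in an RE follow how open it is. Transcription factors such as SOX9 bind REs and recruit coactivators, and their loss closes many of the REs they hold open. Changes in accessibility that appear many hours after the loss of a factor can also pass through other genes and factors, which this assay does not follow. AP-1, a dimer of FOS and JUN family proteins, homeodomain proteins and the nuclear receptors NR2F1 and NR2F2 are factors active in neural crest and mesenchyme.

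Libraries held 22.9 to 81.0 M counts in REs, and the median late gained RE held 54 to 256 counts per library. The labelled cell type was checked at promoters. All 12 cranial neural crest markers had a promoter RE, with a median of 39.5 CPM over the genes at 0 nM (13.6 to 91.7). So did 4 of 5 pluripotency, 4 of 4 neuron and 4 of 4 glia and melanocyte markers. Their medians were lower, at 6.72, 2.76 and 2.31 CPM, but the highest pluripotency marker reached 40.7 CPM. The presence of a promoter RE alone therefore did not separate these cell types. Of 8 markers of endothelium, blood and epithelium, 4 had a promoter RE, and PECAM1, PTPRC, SPI1 and CDH1 had none. The summed CPM over the promoter REs of these other cell types ranged from 31.7 to 37.1 at 0.5 nM and from 32.9 to 42.0 at 16 nM, and 0 of these 6 REs passed the test between them. Of the pluripotency marker promoters 2 of 5 REs were called lower, with a summed CPM of 80.3 to 93.8 at 0.5 nM and 66.5 to 83.3 at 16 nM. For the cranial neural crest, neuron and glia and melanocyte markers 1 RE each was called lower, of 25, 8 and 9. The part of these changes in the results was not tested. None of the marker promoter REs was a late gained RE. In the time course the tagged R5 libraries stood apart before any degrader was given: the median CPM over late gained REs was 3.86 with vehicle, against 2.13 in tagged R4 and 2.40 in WT R5. Differences between genotypes at 24 h are therefore also given without the R5 libraries of 24 h, which leaves 1 library per genotype. The tagged vehicle libraries also served to choose the members.

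Late gained REs held the letters of AP-1, homeodomain and NR2F sites more often than the other REs of the table, and 5 of them are printed to show how such letters lie in these REs. They were taken from the members with the strongest tests at 16 against 0.5 nM (3 REs) and from the promoter members with the strongest tests (2 REs). Within each group REs with more matches to these 3 motifs were preferred, so the 5 overstate how common the motifs are. LG3, with 1 match, was tied with other members. Each line gives the 300 bases round the centre of the RE on the plus strand of hg38, with matches on either strand in capitals: TGACTCA or TGAGTCA for AP-1, TAATTA for the homeodomain core and AGGTCA or TGACCT for NR2F.
LG3: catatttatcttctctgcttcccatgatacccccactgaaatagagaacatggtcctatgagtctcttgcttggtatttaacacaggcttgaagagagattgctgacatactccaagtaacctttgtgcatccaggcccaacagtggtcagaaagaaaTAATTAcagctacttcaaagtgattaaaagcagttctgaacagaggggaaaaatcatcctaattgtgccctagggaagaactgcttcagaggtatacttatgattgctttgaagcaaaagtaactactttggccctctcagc
LG5: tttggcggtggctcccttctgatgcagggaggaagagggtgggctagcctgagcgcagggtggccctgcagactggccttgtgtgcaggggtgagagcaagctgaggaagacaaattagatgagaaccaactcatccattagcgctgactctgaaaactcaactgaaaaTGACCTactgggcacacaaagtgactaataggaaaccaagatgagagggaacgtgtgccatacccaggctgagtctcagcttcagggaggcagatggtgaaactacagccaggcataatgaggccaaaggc
LG9: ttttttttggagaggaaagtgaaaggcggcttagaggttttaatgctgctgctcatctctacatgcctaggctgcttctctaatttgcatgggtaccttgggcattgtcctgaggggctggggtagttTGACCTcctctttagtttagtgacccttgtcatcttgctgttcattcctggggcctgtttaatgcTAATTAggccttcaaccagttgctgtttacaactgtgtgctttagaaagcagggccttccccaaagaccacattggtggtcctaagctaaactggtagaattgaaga
LG11: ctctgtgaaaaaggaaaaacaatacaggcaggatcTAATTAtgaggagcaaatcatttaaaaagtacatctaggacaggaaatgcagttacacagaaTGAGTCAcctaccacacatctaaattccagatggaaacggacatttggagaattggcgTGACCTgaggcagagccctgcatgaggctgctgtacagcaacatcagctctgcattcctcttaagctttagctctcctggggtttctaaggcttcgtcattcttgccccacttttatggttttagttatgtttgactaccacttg
LG12: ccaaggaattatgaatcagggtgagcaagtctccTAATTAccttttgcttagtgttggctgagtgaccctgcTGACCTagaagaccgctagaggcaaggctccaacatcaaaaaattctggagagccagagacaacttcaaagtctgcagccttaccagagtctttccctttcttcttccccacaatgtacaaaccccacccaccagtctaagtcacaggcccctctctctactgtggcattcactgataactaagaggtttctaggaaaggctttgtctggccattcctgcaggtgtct
LG3 lies at chr4:136425504-136425803 in intergenic DNA, 1107 kb from the start of PCDH18, which encodes a protocadherin. LG5 (chr4:184142515-184142814) lies in an intron of ENPP6, a choline phosphodiesterase, and LG9 (chr12:82781711-82782010) in an intron of TMTC2, an O-mannosyltransferase of the endoplasmic reticulum. LG11 (chr5:169696219-169696518) and LG12 (chr3:108509860-108510159) are promoter REs in the first kilobase of DOCK2, a guanine nucleotide exchange factor of blood cells, and of MYH15, a myosin heavy chain. Only LG11 of these 5 holds all 3 motifs, and its match nearest to the centre of the RE lies 8 bp from it.

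By the criteria that chose them, the REs had a median log2 difference of 0.83 between 500 and 0 nM (range 0.70 to 1.97), against 0.05 over all REs, and 115 of them exceeded 1. At 3 h the median was 0.00 (range −0.89 to 0.15), against 0.06 over all REs, and 354 members lay below 0. In both differentiations 155 members (21.9%) were higher at 3 h than with vehicle, beside 41.6% of all REs. Mean CPM ran from 0.585 to 22.7 at 0 nM and from 2.01 to 44.6 at 500 nM. The median RE went from 2.17 to 4.41 CPM, and the 0 nM value was close to the 2.37 CPM of the median RE of the table. These values describe the selection and were not tested. The same 7 tagged cultures also received 0.5, 1.6, 5 and 16 nM, and these samples took no part in the choice.

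The intermediate concentrations were used to ask at which SOX9 dosage the late gained REs opened. The median CPM over members, given as lowest, median and highest of 7 replicates, was 1.67, 2.19 and 3.12 at 0.5 nM. It was 1.71, 2.26 and 3.50 at 1.6 nM. At 5 nM it was 2.13, 2.61 and 3.89, and at 16 nM it was 2.43, 3.45 and 5.06. The ranges overlapped at all neighbouring concentrations, while within each replicate the level at 16 nM exceeded that at 0.5 nM. Relative to 0 nM of the same replicate, the median log2 difference over members was 0.06 ± 0.07 at 0.5 nM and 0.13 ± 0.09 at 1.6 nM (mean ± SD of 7 replicates). It was 0.32 ± 0.11 at 5 nM, reached 0.63 ± 0.19 with 16 nM and ended at 0.85 ± 0.05 with 500 nM. Over all REs these means stayed between 0.00 and 0.04. The 0 and 500 nM libraries served to choose the members, so differences from 0 nM are not independent of the choice. Against 0.5 nM, which took no part in it, the difference was 0.07 ± 0.07 at 1.6 nM and 0.27 ± 0.08 at 5 nM. At 16 nM it was 0.57 ± 0.16, against 0.02 over all REs.

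**Figure D1:**
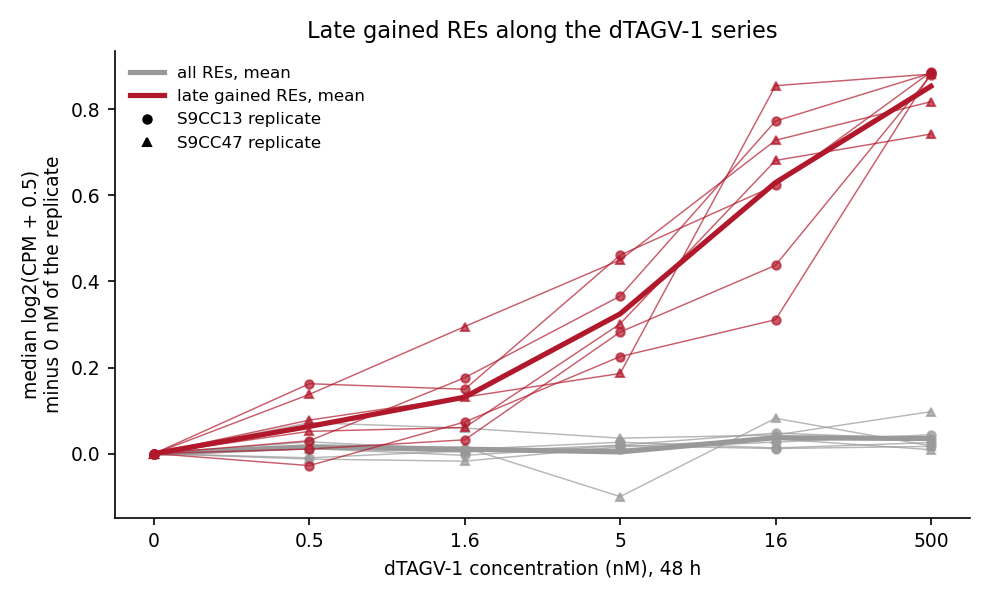
The median log2(CPM + 0.5) over REs minus the 0 nM value of the same replicate (vertical axis) is plotted for each concentration of dTAGV-1 at 48 h (horizontal axis, categories not to scale). Thin lines are the 7 replicates (circles S9CC13, triangles S9CC47) and thick lines their means, which reach 0.63 at 16 nM and 0.85 at 500 nM for late gained REs (red) and stay at or below 0.04 for all REs (grey); the 0 and 500 nM values were used to choose the members.

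Between 77.9 and 8.14% of SOX9, 644 of 708 late gained REs (91.0%) were called higher and 0 lower by edgeR's quasi-likelihood test at 16 against 0.5 nM (adjusted p threshold 0.05), whereas 5.45% of all REs were called higher. The median fitted log2 fold change was 0.66 (quartiles 0.54 and 0.80), against 0.02 over all REs, and all 708 members had a positive value. In each of the 7 replicates 571 members (80.7%) were higher, against 8.50% of all REs. The CPM ranges of the 7 replicates did not overlap between these concentrations for 18 members (2.54%), beside 0.0971% of all REs. The early gained REs, which met the same 48 h criteria but had risen by 0.15 or more at 3 h, had 633 of 688 called higher with a median of 0.69. The difference between the groups was not tested.

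The strongest tests belonged to distal REs. LG3, near PCDH18, held 1.33, 2.12 and 3.87 CPM (lowest, median and highest) at 0.5 nM and 3.16, 6.12 and 7.88 CPM at 16 nM. Its ranges overlapped, but it was higher in 7 of 7 replicates, by 1.26 ± 0.11 (SE) on the log2 scale and with an edgeR adjusted p of 1.4e-07. LG1, 30.7 kb from the start of INTS6L, which encodes a relative of an Integrator subunit, had the largest 48 h difference of all members, 1.97. It went from a median of 1.84 CPM (1.11 to 4.68) at 0.5 nM to 6.17 CPM (2.48 to 15.1) at 16 nM. Its log2 fold change of 1.62 ± 0.17 was the largest of all 151,457 REs in this comparison (edgeR adjusted p = 1.5e-06). LG7, an intergenic RE 299 kb from SUCLA2, a subunit of succinyl-CoA synthetase, was more open throughout. It held 11.5 CPM (10.2 to 16.5) at 0.5 nM and 20.9 CPM (16.4 to 30.8) at 16 nM, so that only the highest library at 0.5 nM reached into the upper range. LG8, in an intron of the noncoding gene PKN2-AS1 and 411 kb from the LIM-domain cofactor gene LMO4, rose by 1.15 ± 0.11. LG5 and LG9, whose sequences are printed above, rose by 1.24 ± 0.12 and 1.00 ± 0.10. The other 3 of the 6 members with the largest 48 h differences were LG2, LG4 and LG6. LG2, in intergenic DNA on chromosome 4 far from any coding start, rose by 1.49 ± 0.20 but was higher in 6 of 7 replicates, with 0.756 to 8.06 CPM at 16 nM. LG4, whose nearest gene is MYOM2, a protein of the muscle sarcomere, rose by 1.15 ± 0.24, and LG6, in an intron of FRAS1, a matrix protein of basement membranes, by 0.82 ± 0.17.

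A few members did not follow the intermediate doses. LG33, at the start of FXYD2, a regulator of the sodium pump, held 1.14 CPM (0.864 to 2.18) at 0.5 nM and 1.29 CPM (0.795 to 2.22) at 16 nM, with 1.98 CPM (1.49 to 5.66) at 500 nM. Its log2 fold change at 16 against 0.5 nM was 0.10 ± 0.15 (edgeR adjusted p = 0.79), the lowest of all members. LG34, in an intron of TCF7L2, a transcription factor of WNT signalling, had 0.17 ± 0.14, and LG35, in an intron of SMIM14, had 0.18 ± 0.22. Their medians at 0.5 nM were 2.04 and 1.06 CPM. Each of the 3 REs contains at least 1 AP-1 match, as do 203 of the 708 members. Of these 203, 169 were called higher at 16 against 0.5 nM.

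**Figure D2:**
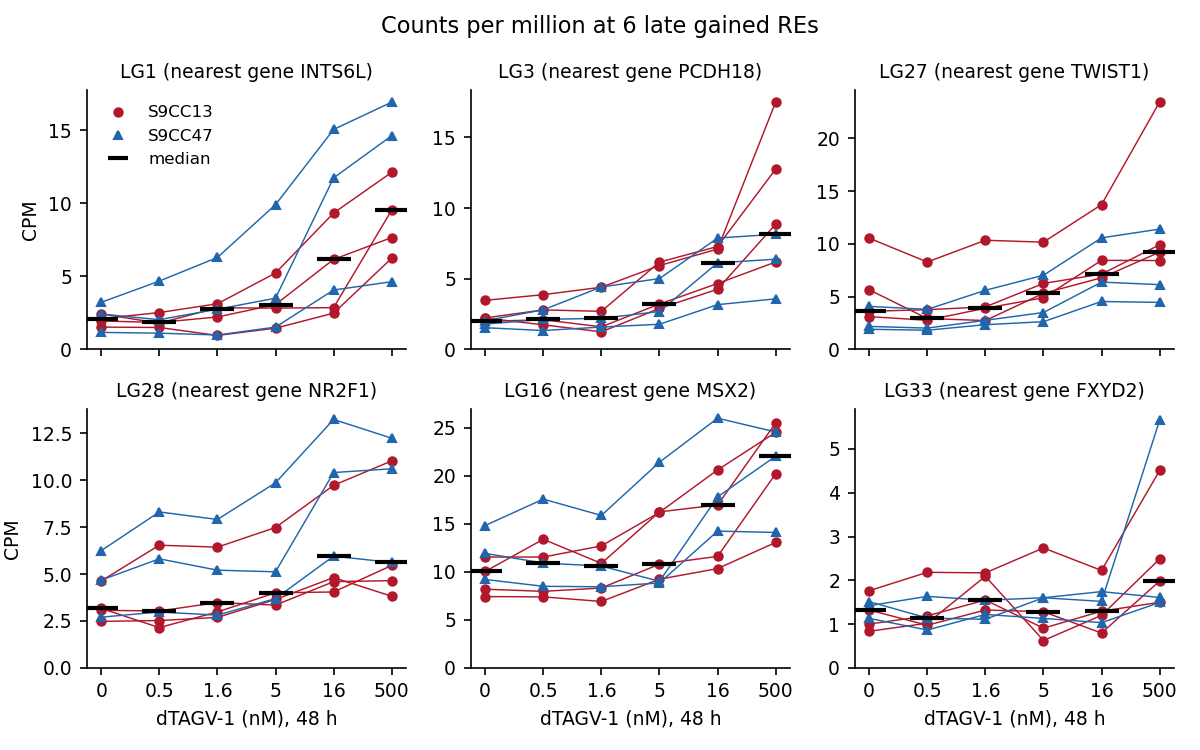
CPM (vertical axis, each panel with its own scale from 0) are plotted against the concentration of dTAGV-1 at 48 h (categories not to scale) for 6 late gained REs. Lines are the 7 replicates (red circles S9CC13, blue triangles S9CC47) and black bars the medians: LG3 goes from a median of 2.12 CPM at 0.5 nM to 6.12 CPM at 16 nM, whereas LG33 is at 1.14 and 1.29 CPM.

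The steps between neighbouring concentrations were tested one by one. From 77.9 to 51.7% of SOX9 (1.6 against 0.5 nM), 0 members and 0.0% of all REs were called higher. The median change was 0.09 against 0.00 over all REs, 46 members (6.50%) had an unadjusted p under 0.05 beside 3.63% of all REs, and DESeq2 also called 0 members. From 51.7 to 25.8% (5 against 1.6 nM), 15 members were called higher beside 0.0588% of all REs, with a median change of 0.25. From 25.8 to 8.14% (16 against 5 nM), 51 were called higher beside 0.0905% of all REs, with a median change of 0.34, and 0 members were lower in either step. DESeq2 called 28 and 98 members in these steps. The step from 25.8 to 8.14% was the largest of the 3 for 487 members (68.8%), the step from 51.7 to 25.8% for 199 and the first for 22. This count was made for members only. The early gained REs had similar median changes in the 3 steps, 0.09, 0.28 and 0.34. The titles pair the samples by clone and differentiation, and with this replicate block the counts were 4, 117 and 213 members, beside 0.0885, 0.484 and 0.635% of all REs. The largest change of a member between 1.6 and 5 nM was at LG36, in an intron of a noncoding gene 564 kb from the ETS factor gene ETV1, from a median of 1.37 CPM (0.339 to 3.26) to 2.24 CPM (0.847 to 4.31), which is 0.71 ± 0.13 on the log2 scale (edgeR adjusted p = 0.0092). Between 5 and 16 nM the largest were at LG37, in an intron of ANKS1B, which encodes a postsynaptic scaffold protein, and LG38, in an intron of ADGRB3, an adhesion receptor of neurons. The next largest step between 1.6 and 5 nM, 0.69 ± 0.24 at LG4, did not pass the test (edgeR adjusted p = 0.30). LG37 went from 0.859 CPM (0.716 to 1.99) to 2.00 CPM (1.64 to 3.40) and LG38 from 1.10 CPM (0.485 to 1.28) to 2.18 CPM (0.991 to 2.77), with log2 fold changes of 1.02 ± 0.17 and 1.01 ± 0.19.

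**Figure D3:**
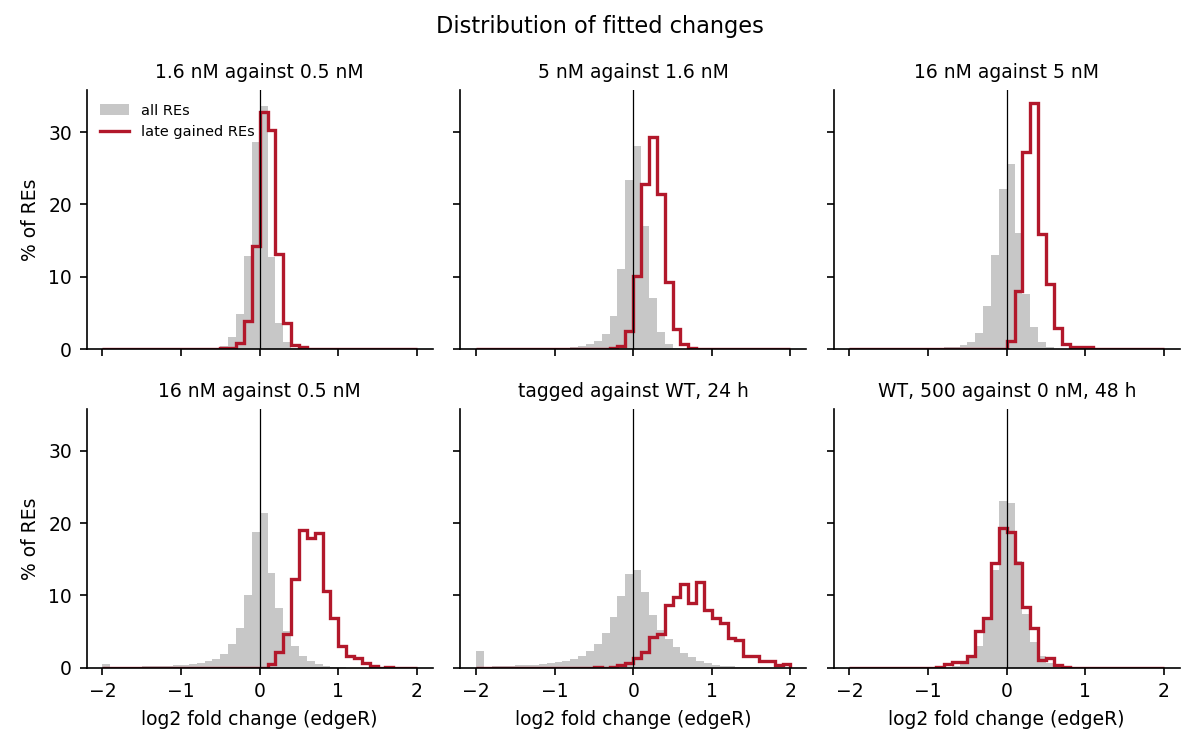
Histograms of fitted log2 fold changes (horizontal axis, bins of 0.1, values beyond the axis in the outer bins) show the percentage of REs per bin for late gained REs (red line) and all REs (grey) in 6 comparisons that used none of the contrasts behind the choice of members. The red distribution moves to the right from a median of 0.09 at 1.6 against 0.5 nM to 0.66 at 16 against 0.5 nM and lies over the grey one in WT cells at 48 h.

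The time course asked when the REs opened. In tagged R4 the median CPM over late gained REs was 2.13 with vehicle, 2.00 after 3 h and 3.78 after 24 h. In tagged R5 it was 3.86, 3.87 and 5.02. In WT cells it was 1.99, 1.82 and 2.29 in R4, and 2.40, 2.68 and 2.49 in R5. At 24 h the tagged cells were thus above WT cells in both differentiations. The median log2 difference between 24 h and vehicle was 0.68 in tagged R4 and 0.32 in tagged R5, against 0.07 and 0.01 over all REs, and 653 members (92.2%) were higher in both beside 39.3% of all REs. In WT cells the median over members was 0.17 and 0.04, against 0.03 and 0.02 over all REs. There 319 members (45.1%) were higher in both differentiations, beside 30.5% of all REs. The vehicle and 3 h samples of the tagged cells served to choose the members.

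**Figure D4:**
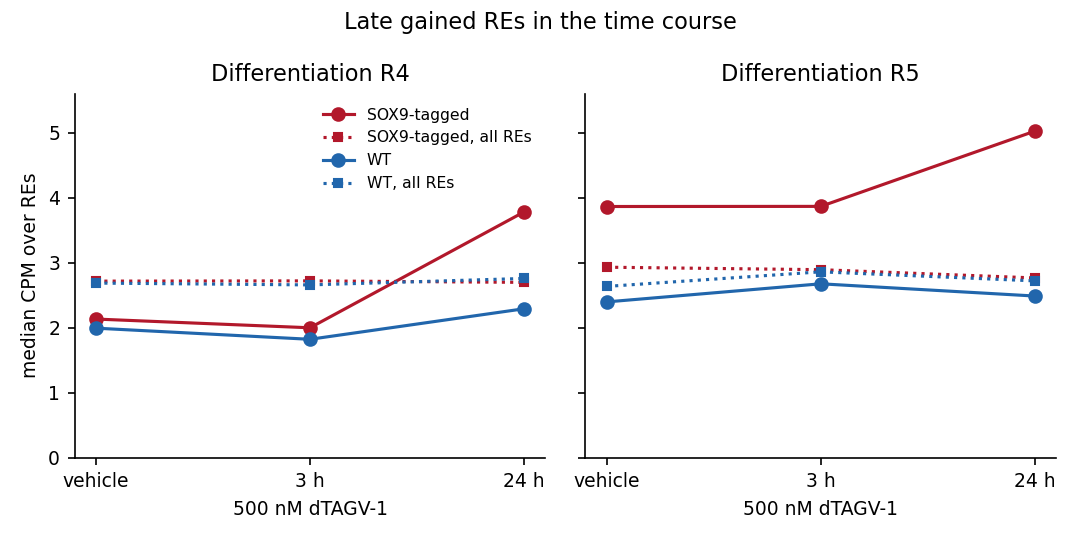
The median CPM over REs (vertical axis) is plotted for vehicle, 3 h and 24 h of 500 nM dTAGV-1 (horizontal axis) in differentiations R4 and R5, with 1 library per point. Solid lines are late gained REs and dotted lines all REs, red for SOX9-tagged and blue for WT cells. Tagged cells reach 3.78 CPM in R4 and 5.02 CPM in R5 at 24 h, and tagged R5 already stands at 3.86 CPM with vehicle.

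With SOX9-tagged cells compared with WT cells at 24 h, samples that took no part in the choice, 437 late gained REs (61.7%) were called higher and 0 lower by edgeR, beside 4.41% of all REs, with a median log2 difference of 0.77 against 0.00. This comparison includes what separated the genotypes without degrader. With vehicle the median difference between tagged and WT cells over members was 0.11 in R4 and 0.57 in R5, against 0.01 and 0.09 over all REs. At 24 h it was 0.62 and 0.84. In R8, whose tagged and WT cells were sampled at 48 h, it was 0.25 at 0 nM. The tagged vehicle and 0 nM libraries served to choose the members, so these differences without degrader are not independent of the choice. Over early gained REs they were 0.03 in R4 and 0.47 in R5 with vehicle, and 0.24 in R8 at 0 nM. Without the R5 libraries of 24 h, 1 library per genotype was left at that time, and the median fitted difference over members was 0.64. Without those of R4 it was 0.90. The vehicle and 3 h libraries of both differentiations stayed in these fits and supplied the spread, so only effect sizes are given. An added correction for GC content raised the count to 525 and changed the split over all REs from 6,685 higher and 14,458 lower to 10,538 and 14,337. LG7 held 24.6 and 29.0 CPM in tagged R4 and R5 at 24 h, against 10.7 and 11.5 CPM in WT, with 13.1 and 21.0 CPM in tagged cells on vehicle. Its log2 difference at 24 h was 1.19 ± 0.15 (edgeR adjusted p = 4.9e-06), and 1.12 without R5. LG1 held 6.28 and 19.5 CPM against 1.90 and 3.83 CPM, but tagged R5 had 13.2 CPM before degradation. Without R5 its log2 difference was 1.64, against 1.99 ± 0.33 with it. LG9, by contrast, held 4.46 and 2.94 CPM against 2.59 and 2.14 CPM and did not pass the test (0.57 ± 0.23, edgeR adjusted p = 0.12). Its difference without R5 was 0.70. LG12 at MYH15 had a difference of 0.18 ± 0.18 (edgeR adjusted p = 0.65), and 0.10 without R5. The early gained REs had 542 of 688 called higher (78.8%) with a median of 0.94, and a median of 0.87 without R5. The difference between the groups was not tested.

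WT cells served to ask whether dTAGV-1 changed these REs in the absence of the tag. The median CPM over late gained REs at 48 h was 1.49 and 2.03 at 0 nM in R8 and RSh, and 1.57 and 1.98 at 500 nM. The median log2 difference was 0.04 in R8 and −0.04 in RSh. edgeR called 0 members and 0.0% of all REs in either direction at 48 h, with a median log2 fold change of 0.00 and 42 members (5.93%, beside 3.63% of all REs) at an unadjusted p under 0.05, and DESeq2 called 0 members as well. At 24 h against vehicle edgeR again called 0 members and 0.0% of all REs, with a median of 0.09 against −0.01 over all REs and 32 members (4.52%, beside 4.12%) at an unadjusted p under 0.05, and DESeq2 called 0 members. Of these 32 members 27 were higher and 5 lower, beside 2,536 higher and 3,701 lower over all REs. Of the 42 members at 48 h, 18 were higher and 24 lower, beside 3,136 and 2,367.

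The clones S9CC13 and S9CC47 were compared as a check on a single edited line. The median log2 difference over members between 16 and 0.5 nM was 0.45, 0.42, 0.37 and 0.73 in R10, R13, R14 and R6 of S9CC13, and 0.60, 0.78 and 0.64 in R5, R6 and R8 of S9CC47. Differentiation R6, sampled in both clones, gave the largest value in each. The interaction of clone and concentration was called for 0 members, beside 0.0555% of all REs. Its median was 0.17 higher in S9CC47, and DESeq2 called 0 members. An unadjusted p under 0.05 was found for 106 members (15.0%), 104 of them with the larger change in S9CC47, beside 5.16% of all REs. Clone and differentiation are partly confounded, since R10, R13 and R14 were sampled in S9CC13 only.

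Few late gained REs were at promoters. Of the 708, 17 (2.40%) were promoter REs, within 1,000 bp of the start of a protein-coding gene, against 16.6% of all REs. The median distance to such a start was 70.5 kb, against 28.4 kb over all REs. Introns of protein-coding genes held 304 members (42.9%, against 42.6% of all REs) and DNA between genes 241 (34.0 against 33.2%), shares near those of the table. Introns of noncoding genes held 135 (19.1 against 11.8%). Few lay in coding (7, 0.99 against 2.5% of all REs), untranslated (8, 1.13 against 5.35%) or noncoding (13, 1.84 against 4.57%) exons. Their GC content had a median of 42.7% against 48.1%. Chromosomes 5 and 3 held 72 and 71 members (0.817 and 0.698% of their REs), and chromosomes 19 and 22 held 3 and 1. Within 100 kb, 148 members (20.9%) had another gained RE, against 9.88% of all REs, while 183 (25.9%) had a lost RE, by the mirrored criteria at 48 h, against 33.5%. For early gained REs the promoter share was 2.47%, the median distance 67.6 kb, the GC content 44.3%, and the shares with another gained or a lost RE nearby 25.6 and 24.7%. Delayed lost REs, which met the mirrored 48 h criteria without a loss of 0.15 or more at 3 h, had a lost RE within 100 kb in 69.6% and a GC content of 54.6%. These are descriptions of regions chosen by their accessibility, with no test.

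The 4 promoter members with the strongest tests at 16 against 0.5 nM were at SH3RF2, DOCK2, MYH15 and SLC47A1. LG10 (chr5:145938874-145939374), 997 bp from the start of SH3RF2, was the most open of these, with 27.5 CPM (10.8 to 40.4) at 0.5 nM and 48.8 CPM (19.0 to 55.6) at 16 nM. The replicates overlapped widely, but each was higher at 16 nM, and the log2 change was 0.67 ± 0.08 (edgeR adjusted p = 7.9e-06). LG11 at DOCK2 went from 3.28 CPM (2.21 to 5.00) to 6.09 CPM (3.44 to 9.47), LG12 at MYH15 from 2.52 CPM (1.19 to 3.51) to 4.25 CPM (2.08 to 6.64), and LG13, 272 bp from the start of the cation exporter gene SLC47A1, from 2.47 CPM (1.41 to 4.01) to 4.80 CPM (2.97 to 5.33). All 3 were higher in 7 of 7 replicates.

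Among REs of the commonest width, TGACTCA or its complement was found in 163 of 563 late gained REs (29.0%, 95% Wilson interval 25.4 to 32.8%), against 9.41% of all REs, 21.4% of early gained and 3.57% of delayed lost REs. The share over all REs whose GC content lay between the quartiles of the members (39.1 and 46.3%) was 10.1%. These REs are called REs of like GC content below. The members themselves were not limited to this range, so such comparisons are not fully matched for GC content. The AP-1 letters also lay closer to the centre: the nearest match was within 50 bp in 53.4% of the late gained REs that held one, against 50.0% of early gained and 32.2% of all such REs. The homeodomain core TAATTA was present in 29.1% of late gained REs (25.5 to 33.0%), against 29.7% of early gained REs, 13.6% of all REs, 18.4% of REs of like GC content and 2.98% of delayed lost REs. AGGTCA, the letters of an NR2F site, was present in 45.5% (41.4 to 49.6%), against 43.8% of early gained REs, 33.9% of all REs and 36.2% of REs of like GC content, and in 52.4% of delayed lost REs. Together 418 of 563 members (74.3%) held at least 1 of the 3 motifs, against 48.2% of all REs. Fewer members than REs of the whole table held the E-boxes CAGCTG (25.6 against 34.2%, and 29.1% at like GC content) and CACCTG (19.4 against 33.6%, and 27.5% at like GC content), which were present in 70.8 and 67.3% of delayed lost REs. KLF/SP letters GGGCGG were found in 5.68% of members against 19.8% of all REs and 5.06% of REs of like GC content. SOX letters ACAAAG and ACAATG were at 35.0 and 24.0% of members, above the 33.3 and 21.2% of all REs but below the 39.1 and 26.5% of REs of like GC content.

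**Figure D5:**
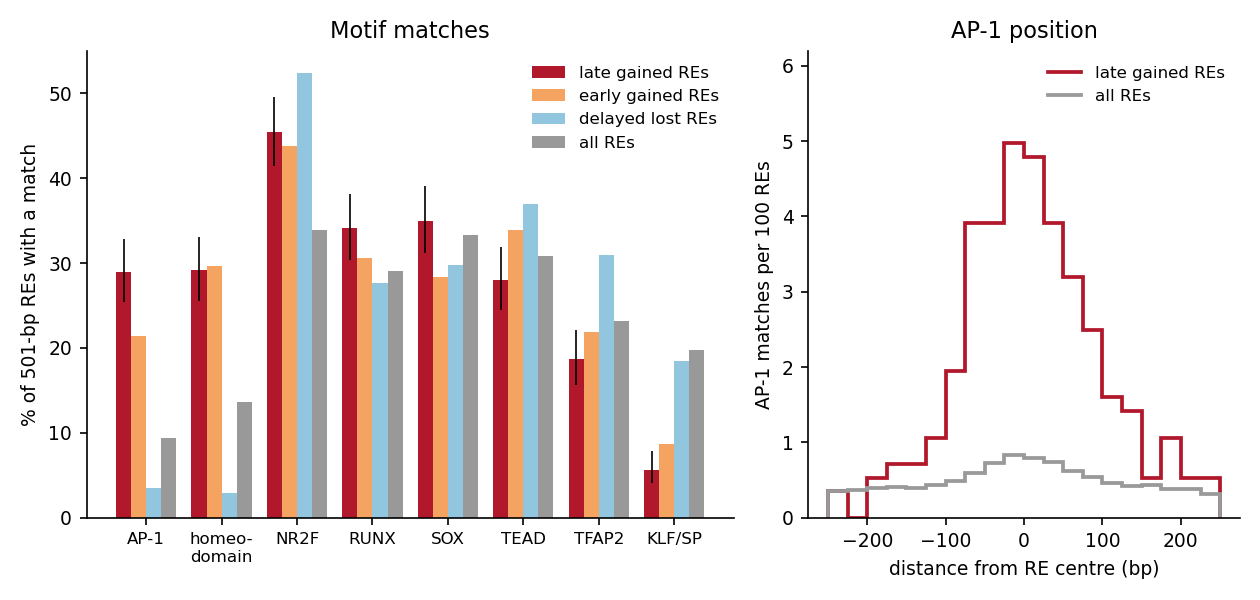
Left, the percentage of REs of the commonest width that hold each motif (vertical axis) for late gained, early gained, delayed lost and all REs, with 95% Wilson intervals for the late gained REs; the SOX bars are for the motif ending in AAAG. Right, AP-1 matches per 100 REs in bins of 25 bp (vertical axis) by distance from the RE centre (horizontal axis). AP-1 stands at 29.0% of late gained and 9.41% of all REs, and its matches pile up within 50 bp of the centre.

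The other motifs were searched on both strands as well. Those searched first were GGAATG for TEAD, which works with YAP, and TGTGGT for RUNX factors. Of the E-boxes, the sites of basic helix-loop-helix factors, CAGATG was also searched. CATATG was the remaining E-box. GATA factors were searched by TGATAA and, with another first letter, by AGATAA. NFI was searched by TTGGCA. FOX was searched by TGTTTAC. TCF/LEF was searched by CTTTGAT. The longer strings were TGACGTCA for CRE, GCCNNNGGC for TFAP2 and ATGCAAAT for POU. ETS was searched by CCGGAAGT, SMAD by GTCTAGAC and MEF2 by CTAAAAATA. CEBP was searched by TTGCATAA, STAT by TTCCNGGAA, and SRF by 1 string of its site. None of the 26 letter strings contains another one whole. RUNX letters were in 34.1% of members, 29.0% of all REs and 31.7% of REs of like GC content. TEAD letters were in 28.1, 30.9 and 33.6% of these. TFAP2 letters were in 18.7% of members, below the 23.1% of all REs and above the 12.2% of REs of like GC content. Members of any GC content were counted here, so the last difference was not matched for GC content. A match describes the letters only, and no factor was measured.

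Of the 203 late gained REs of any width with AP-1 letters, 169 (83.3%) were called higher at 16 against 0.5 nM by edgeR, and of the 505 without them 475 (94.1%). The median log2 difference over members, averaged over replicates, was 0.49 ± 0.16 with and 0.60 ± 0.17 without (mean ± SD, n = 7), and it was lower with AP-1 letters in 7 of 7 replicates. At 24 h against WT cells the order was the other way round, with a median of 0.85 with and 0.74 without, and 148 (72.9%) and 289 (57.2%) called higher. Without R5, with 1 library per genotype left at 24 h, the medians were 0.72 and 0.62. For the homeodomain core the median difference at 16 against 0.5 nM was 0.61 ± 0.18 with and 0.55 ± 0.16 without, higher with the core in 7 of 7 replicates, and 200 of 216 (92.6%) and 444 of 492 (90.2%) were called higher. For NR2F letters the values were 0.57 ± 0.17 and 0.57 ± 0.15. Across all REs of the commonest width, 8.47% of those with AP-1 letters and 5.08% of those without were called higher at 16 against 0.5 nM. For the homeodomain core these shares were 9.2 and 4.8%, and for NR2F letters 6.4 and 4.9%, so a higher share was not particular to AP-1.

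The 640 members with the start of a protein-coding gene within 500 kb were assigned to coding genes, 528 of which had a single member. Proximity does not show that an RE acts on a gene. TMEM38B, which encodes a cation channel of the endoplasmic reticulum, had 4 of its 32 REs among the members. CWC22, a splicing factor gene, had 3 of 24, and MSX2, a homeobox gene of craniofacial bone and neural crest, 3 of 44. SORCS1, NRP1 and BICC1 had 2 each. Near MSX2, LG16 (chr5:174798560-174799498, 74.0 kb from the start) held 10.9 CPM (7.38 to 17.6) at 0.5 nM and 17.0 CPM (10.3 to 26.0) at 16 nM. It was higher in 7 of 7 replicates, and the log2 change was 0.59 ± 0.08 (edgeR adjusted p = 4.6e-05), and of all 44 REs of MSX2 6 were called higher and 3 lower. Of the REs assigned to TMEM38B, 4 were called higher and 8 lower. LG14, with the strongest test of them, rose by 0.66 ± 0.10, LG15 near CWC22 by 0.82 ± 0.11, LG18 near the semaphorin and VEGF receptor gene NRP1 by 0.76 ± 0.14, LG17 at the sorting receptor gene SORCS1 by 0.81 ± 0.15 and LG19 at the RNA-binding protein gene BICC1 by 0.97 ± 0.15.

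Gene lists of neural crest, of its derivatives and of other cell types were read for late gained REs, beside a share of 0.443% members among all assigned REs. Cranial neural crest factors had 7 members of 645 REs (1.09%), near MSX2, TWIST1, NR2F1 and LHX8, and 53 of their REs were called higher and 54 lower at 16 against 0.5 nM. The signalling antagonists and feedback genes had 5 of 617 (0.810%), near DKK2, DUSP6, ID4 and SPRY1, with 58 higher and 48 lower. Osteoblast genes had 2 of 245, near RUNX2 and TNFRSF11B, with 25 higher and 12 lower, and glia and melanocyte genes 2 of 147, both near DCT, with 15 higher and 16 lower. AP-1 genes had 2 of 116, near ATF3 and JUN (7 higher, 4 lower), YAP/TEAD targets 1 of 194, near NT5E (11 higher, 14 lower), and the list of endothelium, blood and epithelium 1 of 214, near CDH5 (8 higher, 21 lower). Chondrocyte genes had 0 of 271 (8 higher, 49 lower), smooth muscle genes 0 of 164 (4 and 11), neuron genes 0 of 197 (9 and 22) and pluripotency genes 0 of 63 (5 and 6). Over all assigned REs, 5.19% were called higher and 8.15% lower.

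Among the named members of these lists, the largest fold change was at LG27 (chr7:18900219-18900719). It lies in an intron of HDAC9, 217 kb from the start of TWIST1, a basic helix-loop-helix factor of neural crest mesenchyme. It held 2.92 CPM (1.81 to 8.28) at 0.5 nM and 7.13 CPM (4.54 to 13.7) at 16 nM, a log2 change of 1.24 ± 0.13 (edgeR adjusted p = 2.0e-06). It was 1.31 ± 0.30 higher in tagged than in WT cells at 24 h (1.14 without R5). The replicates were widely spread at each concentration, and tagged R5 held 10.2 CPM on vehicle against 1.90 CPM in tagged R4. LG28 (chr5:93322460-93323424), in intergenic DNA 260 kb from the nuclear receptor gene NR2F1, held 3.03 CPM (2.14 to 8.31) and 5.96 CPM (4.04 to 13.2), a change of 0.76 ± 0.09 (edgeR adjusted p = 9.1e-06). LG20, in an intron of RUNX2, the master regulator of osteoblasts, was weakly open, with 1.26 CPM (0.977 to 1.52) and 1.89 CPM (1.67 to 2.90), and its groups did not overlap. It rose by 0.66 ± 0.13 (edgeR adjusted p = 0.0013). LG25 and LG26, in introns of GPC6 and nearest to the melanin synthesis gene DCT, rose by 1.04 ± 0.17 and 0.58 ± 0.11. LG22 near ATF3 rose by 0.91 ± 0.16, whereas LG23 near JUN had 0.49 ± 0.16 (edgeR adjusted p = 0.053). Lower values were found at LG21 near TNFRSF11B, the decoy receptor osteoprotegerin, with 0.43 ± 0.13, LG32 near the endothelial cadherin gene CDH5, with 0.42 ± 0.12, and LG24 near NT5E, with 0.28 ± 0.16 (edgeR adjusted p = 0.33). LG29 near the WNT antagonist gene DKK2 rose by 0.47 ± 0.09, and LG30 and LG31 near the ERK phosphatase gene DUSP6 by 0.54 ± 0.11 and 0.57 ± 0.12.

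At the edges of the criteria, the members with the smallest 48 h difference lay near HDDC2, PLCL1 and EPHA3 (0.7004, 0.7005 and 0.7007) and the REs just left out near FZD7, ADTRP and SEC23A (0.6995, 0.6994 and 0.6992). The members with the largest 3 h difference lay near TLL1, STIM1 and PTGS1 (0.1497, 0.1495 and 0.1493) and the REs just left out near STX16, BMP5 and ADGB (0.1503, 0.1504 and 0.1505). In these bulk libraries a larger share of cells with an open RE and a wider opening in each cell cannot be told apart.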

How the data were processed

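ATAC-seq was measured in 58 libraries of 14 groups. According to the methods of the study and the submitters' processing notes, the authors aligned reads to hg38 with Bowtie2 2.4.1, removed duplicates and mitochondrial reads with SAMtools 1.10, called summits per sample with MACS2 2.2.7.1 from shifted cut sites, and merged those seen in several differentiations into one set of REs with bedtools. The deposited values are raw counts per RE, not normalized. Totals bound the precision, and intervals cover counting error only. File starts were read as counted from 0 and are printed counted from 1. Genes came from GENCODE release 44.

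Counts were tested with edgeR 4.0.16 in R 4.3.3 (TMM, trended dispersion, quasi-likelihood F test, batch as covariate) over all 151,457 REs without a filter, with Benjamini-Hochberg adjustment at 0.05. The SE of a fitted change is its size divided by the square root of its F value. Each pair of concentrations was fitted on its 14 samples, the time course on 12 and WT on 10. The scripts were tested on simulated data. The samples titled 0 and 0.5 nM of S9CC13_R14 have swapped concentration labels, and the titles were used. Samples pair by clone and differentiation, as the titles give them: between 16 and 0.5 nM the deviations of same-named samples from their group means correlated at 0.612 or more. No 2 samples of a group agreed within counting error.

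Alternatives were DESeq2 1.42.0, other size factors, filterByExpr, a replicate block, no block, each replicate left out, a GC correction in 50 bins (added after the data were seen), TMM-scaled CPM and a pseudocount of 1. The REs named as LG1 to LG38 were taken by fixed ranks: the largest 48 h difference, the lowest p at 16 against 0.5 nM among all members, among promoters, for the genes with the most members and for each gene list, the lowest fold change, and the largest steps. The members and the lists were chosen with earlier results of these data known.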

Additional observations from a re-analysis of the deposited data

Results flagged for a closer look

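Of 51 sets of 7 replicates that were checked, 2 held a replicate whose gap to its nearest neighbour exceeded Dixon's 95% critical value of 0.568 of the range, and chance marks about 1 in 20. At LG18, near NRP1, the log2 difference between 16 and 0.5 nM was −0.18 in R13 of S9CC13 and 0.49 to 0.92 in the other 6 replicates. At LG31, near DUSP6, it was 1.07 in R10 of S9CC13 and 0.32 to 0.51 in the other 6.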

How the results depend on the processing

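At 16 against 0.5 nM the number of members called higher stayed between 574 and 663 when each replicate was left out, was 688 with the replicate block and fell to 140 with no replicate block. Between neighbouring concentrations the counts were 0 with no block, 28 (5 against 1.6 nM) and 98 (16 against 5 nM) with DESeq2, and 4, 117 and 213 with the replicate block. For tagged against WT cells at 24 h they were 193 to 370 without 1 of the 2 differentiations, each lone sample then being assumed to vary like the other groups, and 19 with no block. In WT cells 1 member was called at 48 h in a fit of only the 4 WT samples of that time. A pseudocount of 1 in the criteria kept 450 REs, 414 of them among the 708. The homeodomain share of the members, whatever their GC content, exceeded that of REs of like GC content by 10.7 percentage points, against 15.5 over all REs. Of 67 alternative values of the comparisons, the left-out replicates included, 53 lay within 1.5 times the reported counts or within the stated spread. Of 532 values of the named REs under the alternatives at 16 against 0.5 nM, 499 stayed on their side of the threshold, 28 lost the call, most of them with no block, 5 at LG23 near JUN gained it, with the block among others, and 0 changed direction. LG21 and LG32 lost the call with no block and without any 1 of several replicates, with log2 fold changes of 0.40 to 0.45 and 0.40 to 0.43, and LG21 also with the GC correction. The causes were not tested. Members below 2 CPM rest on few reads.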
